A study of Mus musculus with 4 samples.

Results

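The Fc receptors are the cell surface and intracellular proteins that bind the constant (Fc) part of antibodies. The 6 genes described here are Fcgr1, Fcgr3 and Fcgr4, which encode the activating receptors for IgG, Fcer1g, which encodes the signalling chain that those receptors share, Fcgr2b, which encodes the inhibitory IgG receptor, and Fcgrt, which encodes the heavy chain of the neonatal Fc receptor FcRn. Members were chosen by gene symbol, taking every array probe annotated with 1 of these symbols alone, which gave 11 probes among 45281 on the array and 6 genes among 19057 with such a probe.

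Activating IgG receptors pair with the common γ chain, whose cytoplasmic ITAM motif recruits the kinase Syk once immune complexes cross-link the receptors. The inhibitory receptor carries an ITIM motif instead and recruits the phosphatase SHIP1, so that the balance between both kinds sets how strongly a macrophage answers IgG immune complexes. FcRn binds IgG in acidified endosomes and returns it to the cell surface, which spares it from lysosomal breakdown. In the spleen these receptors serve the capture and clearance of immune complexes from blood, and macrophages, monocytes, neutrophils, mast cells, NK cells, dendritic cells and B cells carry different sets of them, B cells having the inhibitory receptor alone among the classical IgG receptors.

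The samples were spleen cells labelled marginal zone macrophages from BXD2 mice, a recombinant inbred strain that develops spontaneous autoimmune disease, aged 2.5 months. There was 1 array from BXD2-Ifnar-/- mice, which lack the type I interferon receptor and were given PBS, 1 array from BXD2 mice given 25 µg per mouse of sLTβR-Fc intravenously, and a pair of arrays from BXD2 mice given PBS, called the controls here. The injected protein is a soluble lymphotoxin β receptor decoy joined to an antibody Fc part, and no array came from mice given an Fc control protein, so blocking of lymphotoxin and binding of the Fc part by the receptors described here cannot be told apart. Each array held the cells of 2 mice, killed 10 hours after the injection, and all mice shared the BXD2 background.

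Cells had been sorted on low CD11b, absent F4/80 and I-Ab, and surface SIGN-R1. Cd209b, which encodes SIGN-R1, read 152 in Ifnar-/- cells, 145 after sLTβR-Fc, and 127 and 130.1 on the controls, close to the background, and the macrophage genes Siglec1 and Msr1 were not above background on any of the 4 arrays. Of 5 such markers 3 were above background on all arrays, so the cells are called here by their sort. H2-Ab1, an I-A chain that the gate excluded, read 16289 in Ifnar-/- cells, 9488 after sLTβR-Fc, and 8662 and 8305 on the controls. Adgre1, which encodes F4/80, also gated out, read 1017 in Ifnar-/- cells and 631 after sLTβR-Fc, against 629 and 306 on the controls (log2 1.21 ± 0.26 in Ifnar-/- cells, adjusted p = 0.00195, but 0.0802 as deposited). Between 23710 and 24357 of the probes exceeded the background of their array, and the deposited upper quartiles were 156, 146, and 188 and 179 in the same order of arrays. With a single array for each of the first 2 groups and 2 control arrays, the number of arrays limits the precision of every comparison. The RNA comes from whole sorted populations, in which fewer cells of a type and less RNA per cell cannot be told apart.

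Of the 11 probes, 8 were above background on all 4 arrays, 1 for Fcgr3, 1 for Fcgr4, 4 for Fcgr2b and 2 for Fcgrt. The single probes of Fcgr1 and Fcer1g and another Fcgr2b probe were not. On chromosome 1 of the mouse reference GRCm38.p6, Fcgr2b lies at chr1:170960558-170976071, Fcgr4 at chr1:171018926-171029761, Fcgr3 at chr1:171051169-171065915 and Fcer1g at chr1:171229572-171234349. Fcgr1 lies at chr3:96282909-96293969 and Fcgrt at chr7:45092993-45103822. Values below are intensities in arbitrary units after quantile normalisation between arrays, and the level of a probe says nothing against the level of another probe.

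**Figure D1:**
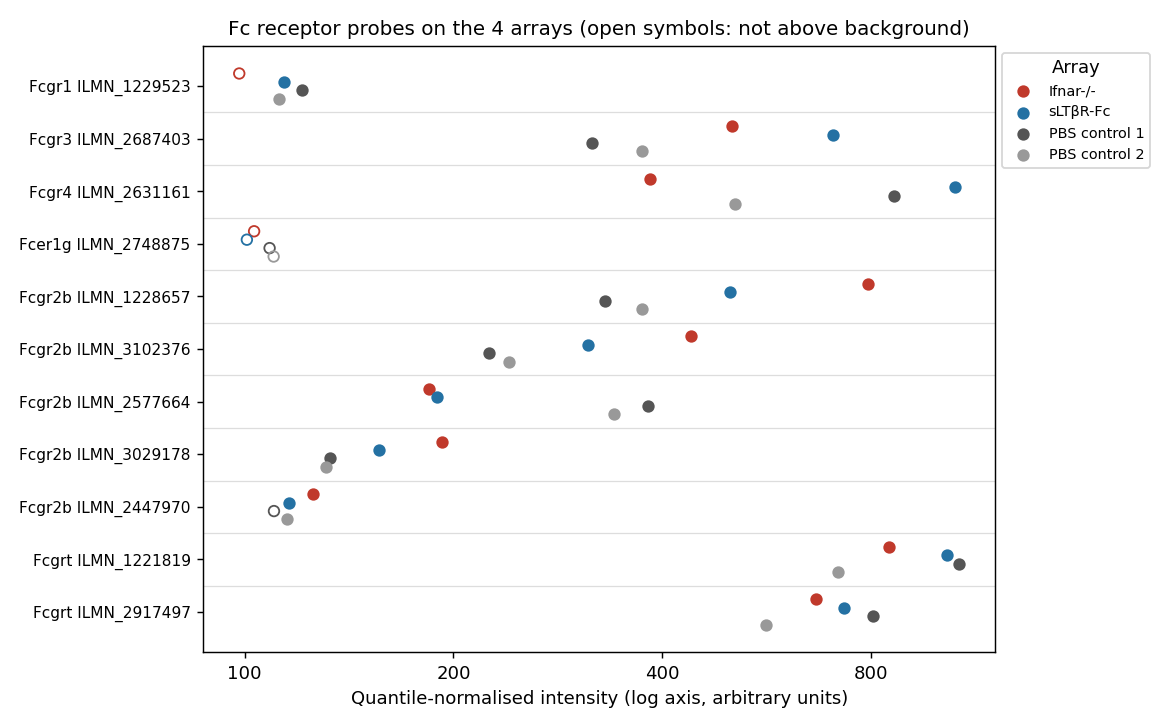
Quantile-normalised intensity (log axis, arbitrary units) of the 11 Fc receptor probes, 1 point per array. Open symbols are not above the background of their array. The Ifnar-/- array is highest for 4 of the 5 Fcgr2b probes and lowest for Fcgr4, while Fcgr1 and Fcer1g stay near 100 on every array.

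Promoter windows of the activating receptor genes are shown because PU.1, a myeloid factor, is known to act on genes of this family, and 1 of the study's groups lacks an interferon receptor. The windows are from RefSeq on GRCm38.p6, 250 bases before to 50 after the transcript start, read 5′ to 3′ on the gene's strand (chr3:96293920-96294219, minus strand, for Fcgr1, chr1:171059354-171059653, minus strand, for Fcgr3, and chr1:171018676-171018975, plus strand, for Fcgr4). Capitals mark every match, on either strand, to the interferon-stimulated response element core GAAANNGAAA or the PU.1 core GAGGAA, which reads TTCCTC on the other strand. No 2 matches overlap.
Fcgr1: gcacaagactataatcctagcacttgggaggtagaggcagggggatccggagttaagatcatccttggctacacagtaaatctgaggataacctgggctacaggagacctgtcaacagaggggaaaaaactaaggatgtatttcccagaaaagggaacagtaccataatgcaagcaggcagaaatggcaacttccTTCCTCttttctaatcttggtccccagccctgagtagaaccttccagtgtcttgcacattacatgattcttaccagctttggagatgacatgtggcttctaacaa
Fcgr3: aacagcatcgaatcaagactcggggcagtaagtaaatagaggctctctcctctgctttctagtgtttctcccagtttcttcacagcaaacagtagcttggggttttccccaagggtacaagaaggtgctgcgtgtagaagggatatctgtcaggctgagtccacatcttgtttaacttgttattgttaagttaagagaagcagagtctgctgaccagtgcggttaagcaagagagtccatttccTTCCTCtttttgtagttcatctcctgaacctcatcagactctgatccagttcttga
Fcgr4: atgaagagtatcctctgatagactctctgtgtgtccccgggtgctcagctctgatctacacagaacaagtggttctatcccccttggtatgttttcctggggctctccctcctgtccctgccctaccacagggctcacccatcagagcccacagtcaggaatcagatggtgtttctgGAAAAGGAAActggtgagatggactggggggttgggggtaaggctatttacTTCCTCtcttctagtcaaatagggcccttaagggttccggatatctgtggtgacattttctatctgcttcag
Each of the 3 windows shown holds 1 PU.1 core, beginning 55, 6 and 22 bases before the start in Fcgr1, Fcgr3 and Fcgr4. RefSeq gives Fcgr3 another start, with its window at chr1:171059345-171059644, from which the same core begins 15 bases before. A core of this kind occurs in 28.3% of 32851 mouse promoter windows of the same length. The response element core, GAAAAGGAAA, lies 73 bases before the start of Fcgr4 and its form occurs in 3.44% of windows. None of these letters were found in the windows of Fcer1g, Fcgr2b and Fcgrt, which says nothing of whether the factors act there.

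The differences from the controls were tested in limma, with Benjamini-Hochberg adjustment over all 15998 probes in the fit. Its standard error (SE) comes from the gap between the control arrays, pooled over probes of like brightness, and holds no spread of the single arrays. In Ifnar-/- cells 3 of the 8 Fc receptor probes in the fit were called higher and 2 lower at an adjusted p under 0.05, where 7.31% and 7.73% of all probes were (1170 and 1237, but 246 and 2628 in the values as deposited). The 3 were all probes of Fcgr2b. For the sLTβR-Fc array 2 were called higher and 1 lower, where 10.1% and 8.86% of all probes were (1622 and 1417, but 218 and 6899 as deposited). Of the 8 probes, 4 lay above both controls and 2 below both in Ifnar-/- cells, where 43.9% and 36.4% of all probes did, and 5 above and 1 below after sLTβR-Fc, where 42.4% and 39.4% did. At least 2-fold from each control in 1 direction were 1 Fc receptor probe higher and 0 lower in Ifnar-/- cells (0.681% and 1.13% of all probes), and 0 in either direction after sLTβR-Fc (1.12% and 0.575%). The median log2 difference of all probes in the fit was 0.020 and 0.0071 after quantile normalisation, and -0.17 and -0.35 as deposited, for the Ifnar-/- and the sLTβR-Fc comparison, so the direction of small differences depends on the scaling. Without a mean-variance trend 2 Fc receptor probes were called higher and 1 lower in Ifnar-/- cells, and 0 after sLTβR-Fc. A fit on probes above background on at least 1 array, with a floor, called 0 of all probes, while an unfiltered fit called 1065 higher and 1202 lower in Ifnar-/- cells and 1342 and 1336 after sLTβR-Fc.

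Among the activating receptors, Fcgr4 differed most between the 2 single arrays, and Fcgr3 was highest after sLTβR-Fc. Fcgr4 encodes a receptor for IgG2a and IgG2b that is found on neutrophils, monocytes and macrophages. It read 383 in Ifnar-/- cells and 1057 after sLTβR-Fc, against 862 and 509.6 on the controls. The Ifnar-/- array lay below both controls and the sLTβR-Fc array above both, but the controls themselves were 1.69-fold apart, a gap that only 0.606% of 15998 probes exceeded. The gap was 0.76 on the log2 scale, close in size to the differences given below. Because the SE is pooled over probes, it is smaller than the spread of Fcgr4 itself, whose controls had a standard deviation of 0.54.

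Fcgr4 in Ifnar-/- cells fell to 0.58-fold the control mean (log2 -0.79 ± 0.23, SE, adjusted p = 0.0218), the difference being -1.17 from control 1 and -0.41 from control 2. It passed in 6 of 9 other settings with a test and was lower in all 11 settings. After sLTβR-Fc Fcgr4 was at log2 0.67 ± 0.23 (adjusted p = 0.0444). That call passed in 3 of 9 other settings, and the value was -0.032 in the values as deposited, where Fcgr4 read 756, against 1061 and 563 on the controls. Its direction after sLTβR-Fc thus differed with the scaling. The difference between the 2 single arrays, log2 -1.46 for Ifnar-/- minus sLTβR-Fc, was not tested.

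The summed level of 10 neutrophil markers was 4811 in Ifnar-/- cells and 21630 after sLTβR-Fc, against 21106 and 12432 on the controls. That order of arrays was also the order of Fcgr4, the only match when 8 Fc receptor probes were set against 11 marker lists. A match of order is a description only, and as deposited Fcgr4 was highest on control 1. Among the genes, S100a8 and S100a9 alone had the order of the sum, Retnlg was highest in Ifnar-/- cells and the others on control 1. Of the 9 neutrophil markers above background on all arrays, 7 lay below both controls in Ifnar-/- cells, where 36.1% of all 10781 genes did, each gene being read by its brightest probe. The test called 6 lower and 1 higher there, against a background of 7.87% and 7.48%, at a median log2 difference of -1.76. After sLTβR-Fc 1 was called higher, where 11.4% of all genes were, and the median was 0.0044. None of the 10 markers was dim on every array. The summed level of 5 red pulp macrophage markers was also lowest in Ifnar-/- cells, at 2081. It was 3332 after sLTβR-Fc, against 5202 and 2655 on the controls. Spic and Hmox1 were lowest after sLTβR-Fc, and Adgre1 was highest in Ifnar-/- cells. There 2 of the 5 were called lower, the iron exporter gene Slc40a1 (log2 -1.94) and the adhesion molecule gene Vcam1 (log2 -1.78), and 1 higher, Adgre1, all 3 named after their values were seen. The controls lay far apart on both lower genes, at 2914 and 1594 for Slc40a1 and 1344 and 486 for Vcam1. Against these, the Ifnar-/- array read 562 and 235. Monocyte and macrophage markers summed over 7 genes to 10952 in Ifnar-/- cells and 9145 after sLTβR-Fc, against 11312 and 6401 on the controls, with 2 of 6 called higher in Ifnar-/- cells (0 as deposited). The part of these cells in the Fcgr4 values was not tested.

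Fcgr3 encodes the low-affinity activating receptor CD16, found on macrophages, neutrophils, NK cells and mast cells. It read 504 in Ifnar-/- cells and 705 after sLTβR-Fc, against 317 and 374 on the controls. The single arrays lay above both controls, which were 1.18-fold apart. After sLTβR-Fc the probe rose 2.05-fold over the control mean (log2 1.03 ± 0.20, adjusted p = 0.00065), by 1.15 from control 1 and 0.91 from control 2. This direction held in all 11 other settings, from 0.37 as deposited to 1.15 without control 2, and the test passed in 6 of 9. The difference in Ifnar-/- cells was log2 0.55 ± 0.20 with an adjusted p of 0.0667, which did not pass, and it passed in 0 of 9 other settings.

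Markers of several other cell types moved with the sLTβR-Fc array, among them a joint list of mast cells, which carry CD16, and basophils. The list cannot separate these cell types. Its highest values on that array were Mcpt8 (10963), Hdc (10917) and Prss34 (8271), while Kit did not pass and Tpsb2 was above background on 1 array only. Mast cell and basophil markers summed to 41583 there over 10 genes, against 14734 and 18733 on the controls, and of the 9 measured on all arrays 9 lay above both controls, where 45.3% of all genes did, and 8 passed as higher, where 11.4% did, at a median log2 of 1.24. Eosinophil markers, of which Ccr3 was not above background on any array, summed to 32504 over 7 genes, against 6642 and 7140 on the controls. Prg2 gave 19445 of that sum. Of the 6 measured on all arrays 5 lay above both controls, where 45.3% of all genes did. Il5ra lay below both, at 122, against 136 and 133, and Siglecf was above background on 2 arrays only. NK cell markers, of which Gzmb was not above background on any array, summed to 15019 over 6 genes, against 17818 and 19500 on the controls. Of these 6, 2 were called lower and 0 higher, where 7.75% and 11.4% of all genes were. As deposited 6 were called lower, where 4669 of 10781 genes were, at a median of -0.83, beside -0.38 for all genes. In Ifnar-/- cells the mast cell and basophil sum was 13962, the eosinophil sum 5630 and the NK cell sum 18853, of which Prf1 gave 10056. The NK cell median there was log2 0.60 (0.29 as deposited). The test called 3 of the 6 NK cell markers higher, where 7.48% of all genes were. As deposited 1 was higher and 1 lower, where 165 and 1768 of 10781 genes were. What these cells contributed to the Fcgr3 values was not tested.

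Fcgr1 encodes CD64, the high-affinity IgG receptor, whose gene is known for its induction by interferon γ. Its probe read 98.2 in Ifnar-/- cells and 114 after sLTβR-Fc, against 121 and 112 on the controls. It was not above background in Ifnar-/- cells, and on the others it exceeded the background limit by a narrow margin, at 1.02 times the limit after sLTβR-Fc and 1.11 and 1.01 times on the controls. The measurable bound was at least 1.05-fold lower in Ifnar-/- cells, and no larger difference can be read from this probe.

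The γ chain gene Fcer1g was not above background on any array. Its 1 probe read 103 in Ifnar-/- cells and 101 after sLTβR-Fc, against 109 and 110.1 on the controls, between 0.91 and 0.995 times the limit. The activating receptors need this chain to reach the cell surface, and the Fcgr3 and Fcgr4 probes were 3.36 to 9.38 times their limit on the same arrays. The probe's place in the transcript was not examined here, and a single dim probe does not show that the transcript was absent. Tyrobp, which encodes DAP12, another ITAM adaptor of myeloid and NK cells, read 1722 in Ifnar-/- cells and 1722 after sLTβR-Fc, against 994 and 1086 on the controls.

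The inhibitory receptor gene Fcgr2b rose in Ifnar-/- cells by the probes annotated to its RefSeq transcripts. The brightest of them, ILMN_1228657, read 791 in Ifnar-/- cells and 501 after sLTβR-Fc, against 331 and 373 on the controls. ILMN_3102376 read 439.6 and 313 in Ifnar-/- cells and after sLTβR-Fc, against 225 and 240.4 on the controls. ILMN_3029178 read 193 and 156, against 133 and 131. All 3 probes put the Ifnar-/- array highest, the sLTβR-Fc array next and the controls lowest with no overlap.

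In Ifnar-/- cells ILMN_1228657 was 2.25-fold the control mean (log2 1.17 ± 0.20, adjusted p = 0.00016) and at least 2-fold above each control. ILMN_3102376 rose 1.89-fold (log2 0.92 ± 0.20, adjusted p = 0.00164) and ILMN_3029178 rose 1.46-fold (log2 0.55 ± 0.11, adjusted p = 0.000895). The first kept its direction in all 11 other settings, between 0.88 and 1.28, and passed in 8 of 9 tests. The last such probe, ILMN_2447970, was not above background on control 1 and read 125 in Ifnar-/- cells and 116 after sLTβR-Fc, against 110.2 and 115 on the controls. These probes read 1 gene and are not independent of each other.

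**Figure D2:**
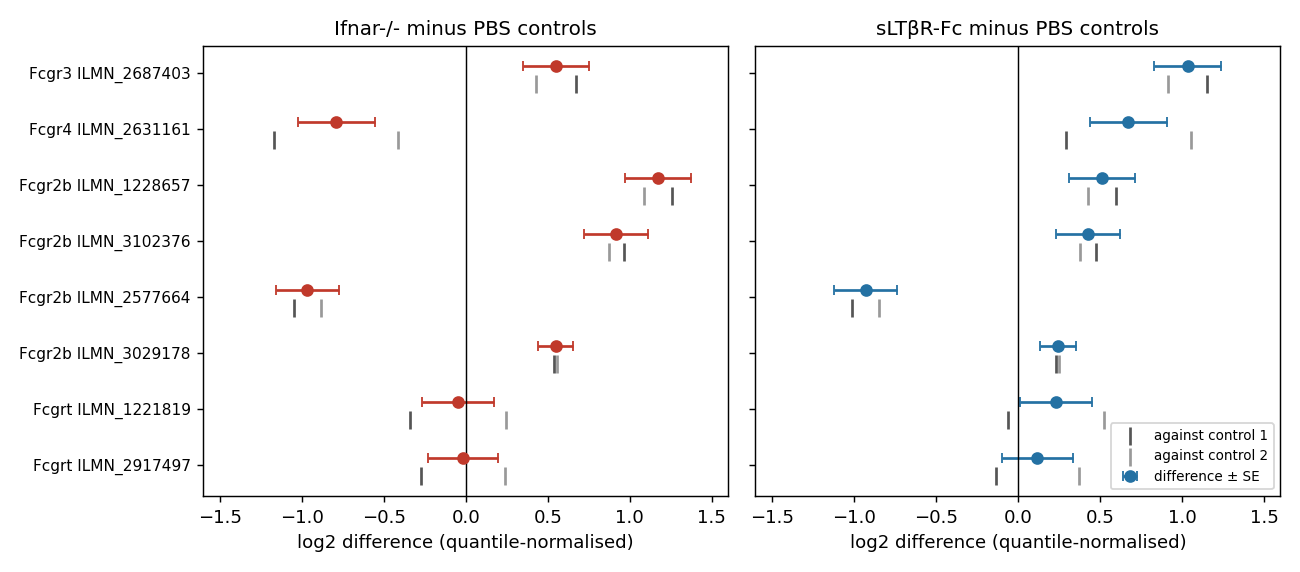
log2 difference from the control mean for the 8 Fc receptor probes above background on all arrays, Ifnar-/- on the left and sLTβR-Fc on the right. Points carry the limma SE and ticks give the difference from each control array. The RefSeq-annotated Fcgr2b probes lie to the right of 0 and ILMN_2577664 to the left, near -1, and the ticks of Fcgr4 and Fcgrt stand widest apart.

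The remaining Fcgr2b probe, ILMN_2577664, went the other way. It is annotated to a cDNA clone and not to a RefSeq transcript of the gene. It read 185 in Ifnar-/- cells and 189 after sLTβR-Fc, against 381 and 341 on the controls, with no overlap. The fit gave log2 -0.96 ± 0.19 in Ifnar-/- cells (adjusted p = 0.000811) and -0.93 ± 0.19 after sLTβR-Fc (adjusted p = 0.00106), values that share the same controls. It was lower in all 10 other settings on either array, and the tests passed in 7 of 8 and 6 of 8. Which part of the gene or which transcript form it reads was not examined here. For Fcgr2b the direction holds by probe and not for the gene as a whole.

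After sLTβR-Fc the RefSeq-annotated Fcgr2b probes did not pass. ILMN_1228657 was at log2 0.51 ± 0.20 (adjusted p = 0.0731), ILMN_3102376 at 0.43 ± 0.20 (adjusted p = 0.129) and ILMN_3029178 at 0.24 ± 0.11 (adjusted p = 0.12). In the values as deposited the first 2 were at -0.14 and -0.14, where ILMN_1228657 read 368, against 399 and 413 on the controls.

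Markers of B cells, which carry Fcgr2b, were higher on the Ifnar-/- array. The summed level of 10 B cell markers was 28382 in Ifnar-/- cells and 13615 after sLTβR-Fc, against 19176 and 18528 on the controls. Of the 9 above background on all arrays 9 lay above both controls in Ifnar-/- cells, where 44.7% of all genes did, and 5 were called higher, where 7.48% of all genes were (1 as deposited). The median log2 was 0.54 (0.25 as deposited). After sLTβR-Fc 8 of the 9 were under both controls, where 36.6% of all genes were, and the median was -0.28. As deposited that median was -0.88, beside -0.38 for all genes, with 8 called lower, where 4669 of 10781 genes were. No marker of the list was dim on every array. Dendritic cell markers, summed over 9 genes, were at 6994 and 6125 on the single arrays, against 6450 and 5878 on the controls, and 5 of 7 passed as higher in Ifnar-/- cells, beside 7.48% of all genes. The part of either cell type in the Fcgr2b values was not tested.

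Fcgrt was above background on every array and did not differ by more than the gap between the controls. Probe ILMN_1221819 read 847 in Ifnar-/- cells and 1029 after sLTβR-Fc, against 1071 and 716 on the controls. Probe ILMN_2917497 read 667 and 732, against 804 and 565. Both single arrays fell between the controls on both probes, and the controls were 0.58 and 0.51 apart on the log2 scale, gaps that 1.58% and 2.38% of probes exceeded. The differences were log2 -0.047 ± 0.22 and -0.016 ± 0.22 in Ifnar-/- cells (adjusted p = 0.92 and 0.974) and 0.23 ± 0.22 and 0.12 ± 0.22 after sLTβR-Fc (adjusted p = 0.496 and 0.749). Neither passed in any of the other settings, whose values after sLTβR-Fc ran from -0.48 to 0.52 and from -0.56 to 0.37. B2m, whose protein is the light chain of FcRn and of MHC class I, read 6204 in Ifnar-/- cells and 7716 after sLTβR-Fc, against 6582 and 9354 on the controls, and did not pass (adjusted p = 0.235 and 0.949).

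**Figure D3:**
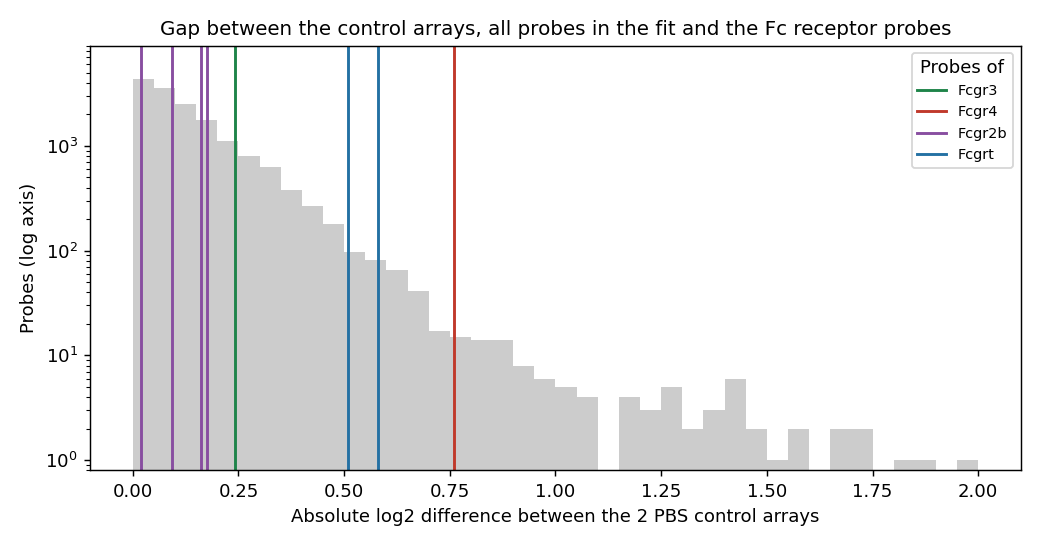
Distribution of the absolute log2 difference between the 2 PBS control arrays over the 15998 probes in the fit (number of probes on a log axis), with the 8 Fc receptor probes as lines. The Fcgr2b probes lie at 0.02 to 0.18, where most probes lie, and Fcgr4, at 0.76, stands in the sparse tail.

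Over 4 scalings between arrays, all 8 probes in the fit kept their direction in Ifnar-/- cells. After sLTβR-Fc 3 of the 8 kept it, which were Fcgr3 and the Fcgr2b probes ILMN_3029178 and ILMN_2577664.

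**Figure D4:**
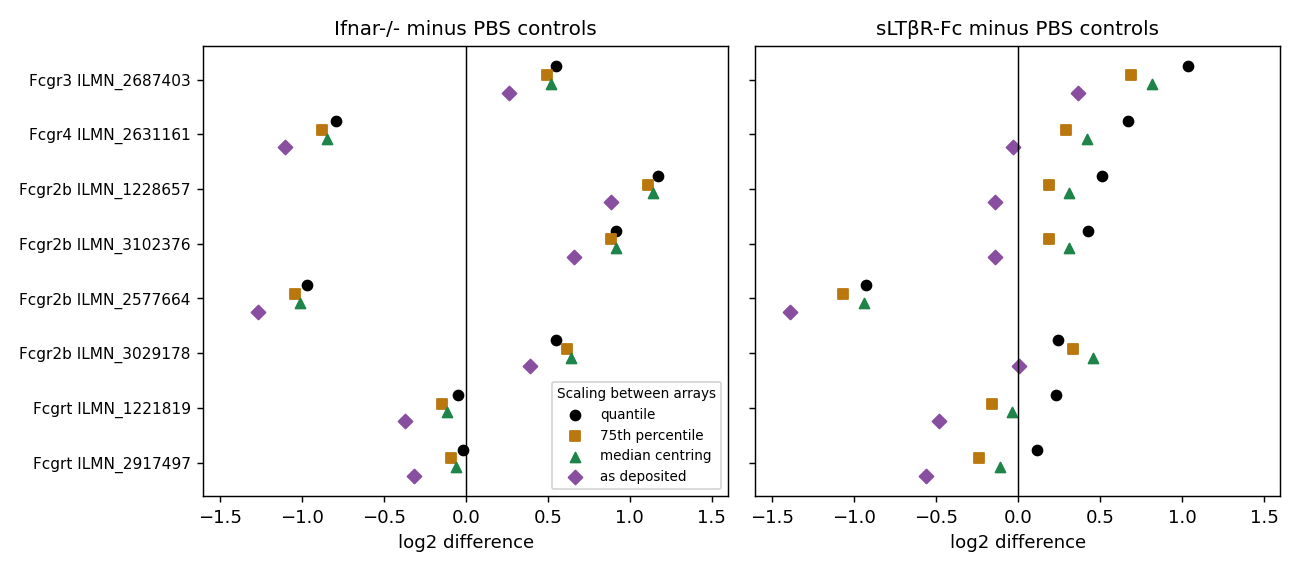
log2 difference from the control mean of the same 8 probes under 4 scalings between arrays. In Ifnar-/- cells (left) each probe keeps its side of 0 under every scaling shown, and after sLTβR-Fc (right) Fcgrt, Fcgr4 and the 2 brighter RefSeq-annotated Fcgr2b probes change side.

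The partners of the receptors in signalling were read from gene lists, each gene by its brightest probe. Of 17 genes of activating signalling measured on all arrays, 6 passed as higher and 1 as lower in Ifnar-/- cells, where 7.48% and 7.87% of all genes did, and the list's median was log2 0.25, beside 0.023 for all genes. Syk, the kinase that binds the γ chain's ITAM, read 540.3 in Ifnar-/- cells and 299 after sLTβR-Fc, against 271 and 215 on the controls, and rose 2.24-fold in Ifnar-/- cells (log2 1.16 ± 0.20, adjusted p = 0.000212). Rac2, a GTPase of phagocytosis and the oxidative burst, rose 1.99-fold there, and Pik3cd, the leukocyte catalytic subunit of PI3 kinase, rose 1.88-fold. Pik3r1, the regulatory subunit of the same kinase, fell to 777 in Ifnar-/- cells, against 2776 and 2616 on the controls (log2 -1.79 ± 0.19), and a further probe gave -1.67.

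In the values as deposited the activating list had 1 gene higher and 2 lower in Ifnar-/- cells, at a median of 0.016, beside -0.17 for all genes. After sLTβR-Fc 0 of the 17 passed as higher and 2 as lower, where 11.4% and 7.75% of all genes did, and the median was 0.015. As deposited that median was -0.56, beside -0.38 for all genes, with 9 lower, where 4669 of 10781 genes were. In the fit after quantile normalisation 2 passed as lower. The 2 were Lat, an adaptor of T cells and mast cells (log2 -1.06 ± 0.18, and -0.53 by a further probe), and Pik3r1 (log2 -0.62 ± 0.19). T cell markers, Lat among them, were lower on the same array, 5 of 7 past the test, beside 7.75% of all genes, with a median of -0.68 and a summed level over 9 genes of 5928, against 9680 and 11757 on the controls.

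Genes of inhibitory signalling had a median of log2 0.56 in Ifnar-/- cells (0.26 as deposited), with 4 of 8 past the test as higher and 1 as lower (1 and 1 as deposited), beside 7.48% and 7.87% of all genes. Dok3 and Dok2, adaptors that dampen receptor kinase signalling, rose 2.20-fold and 1.85-fold, and Csk, the kinase that restrains Src family kinases, rose 1.83-fold. Inpp5d, which encodes SHIP1, read 585 in Ifnar-/- cells and 408 after sLTβR-Fc, against 425 and 361 on the controls, and did not pass on either (adjusted p = 0.0521 and 0.873). Ptpn6, which encodes the phosphatase SHP-1, was at log2 0.55 in Ifnar-/- cells (adjusted p = 0.034) and -0.11 after sLTβR-Fc (adjusted p = 0.707). Ptpn11, which encodes SHP-2, was lower on its brightest probe (log2 -0.64 ± 0.18), while further probes had a median of 0.054. After sLTβR-Fc 1 passed as higher, Dok3 (log2 0.81, and 0.12 as deposited), and 3 as lower, beside 11.4% and 7.75% of all genes, with a median of -0.026 (-0.64 as deposited). The lower ones were Cblb, a ubiquitin ligase (log2 -1.05 ± 0.21, but -0.0015 by a further probe), Inppl1, which encodes SHIP2 (log2 -0.58 ± 0.20), and Ptpn11 (log2 -0.56 ± 0.18).

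**Figure D5:**
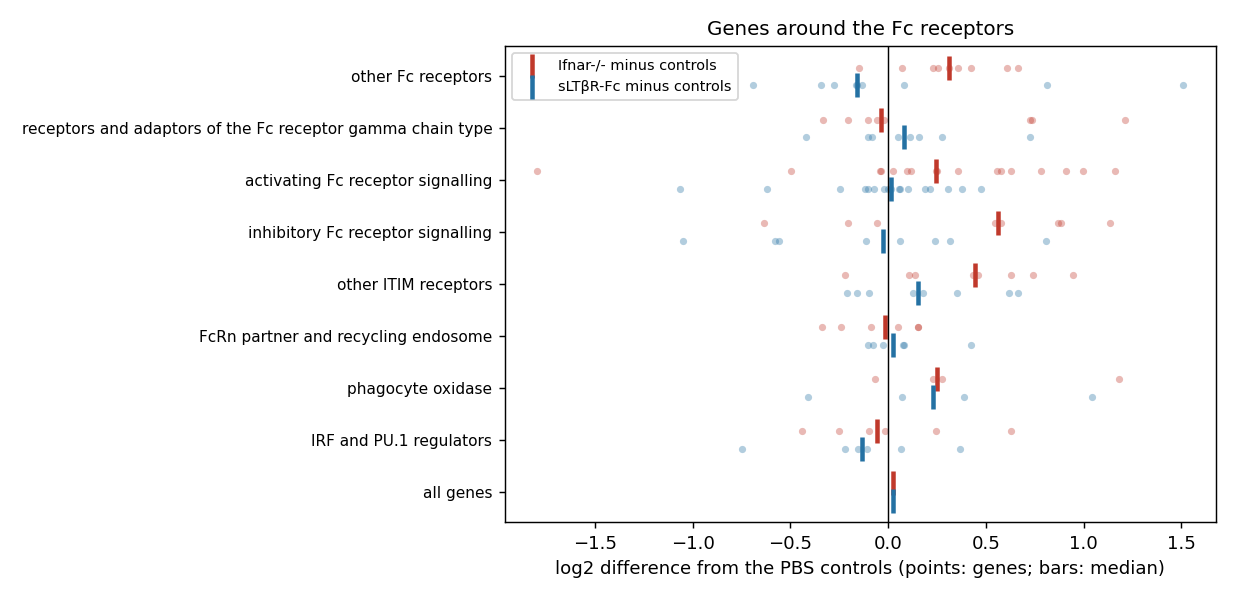
log2 difference from the PBS controls of the genes in each list around the Fc receptors (points, brightest probe of each gene) with the median of the list (bars), Ifnar-/- in red and sLTβR-Fc in blue. The inhibitory signalling and other ITIM receptor lists have the highest medians in Ifnar-/- cells, 0.56 and 0.45, beside 0.023 for all genes.

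Receptors and adaptors of the γ chain type had list medians of -0.038 in Ifnar-/- cells and 0.083 after sLTβR-Fc. Of 8 measured, 3 passed as higher and 0 as lower in Ifnar-/- cells, beside 7.48% and 7.87% of all genes. As deposited 1 was higher and 1 lower, at a median of -0.21, and neither Lilra6 (adjusted p = 0.163) nor Tyrobp (adjusted p = 0.222) passed. Ncr1, the NK cell receptor that signals through this chain, read 733 there, against 285 and 349.6 on the controls (log2 1.21 ± 0.20), Lilra6, an activating receptor of the PIR-A type, rose 1.67-fold and Tyrobp rose 1.66-fold (log2 0.73 ± 0.19, adjusted p = 0.0105). NK cell markers, Ncr1 among them, were at a median of 0.60 there (0.29 as deposited), and what these cells contributed was not tested. After sLTβR-Fc Tyrobp passed as higher at log2 0.73 ± 0.19 (adjusted p = 0.00921, though 0.032 as deposited), and Cd247, which encodes the ζ chain of T and NK cells, was lower at -0.42 ± 0.12.

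Fc receptors outside the classical IgG family were read from a list of 14 genes. In Ifnar-/- cells 3 of 9 measured passed as higher and 0 as lower, beside 7.48% and 7.87% of all genes, at a median of 0.31. As deposited 0 of the 9 passed, at a median of 0.069. The 3 were Fcrla, an Fc receptor-like protein of B cells and 1 of the B cell markers (log2 0.66 ± 0.18), Fcmr, the IgM receptor of lymphocytes (log2 0.61 ± 0.17), and Fcrl5, another B cell member (log2 0.43 ± 0.10). Fcer2a, the low-affinity IgE receptor of B cells, was at 0.36 and did not pass. After sLTβR-Fc the chains of the high-affinity IgE receptor of mast cells and basophils passed as higher, with Fcer1a, itself on the mast cell and basophil list with Ms4a2, at 2087, against 535 and 1004 on the controls (log2 1.51 ± 0.25, and 1.16 by a further probe), and Ms4a2 at 264, against 135 and 167 (log2 0.81 ± 0.15, but 0.37 with an adjusted p of 0.0753 as deposited). The controls were 0.91 apart on Fcer1a. Trim21, an intracellular Fc receptor and ubiquitin ligase, was lower there, at 328, against 452 and 622.5 on the controls (log2 -0.69 ± 0.21, adjusted p = 0.0233).

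Genes with the pattern nearest to a member over the 4 arrays were found by the Euclidean distance between log2 profiles centred on their mean, among 10781 genes. Ddit3 and Tnfrsf10b were nearest to Fcgr3, at distances of 0.071 and 0.076 on the log2 scale. Wfdc21 and Cd63 were nearest to Fcgr4, at 0.088 and 0.14. For the brightest Fcgr2b probe they were Napsa and Asb2, at 0.080 and 0.11, and for the brightest Fcgrt probe Ptpa and Nfx1, at 0.068 and 0.093. A profile of 4 arrays is short, and nearness in it is a description only.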

How the data were processed

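Spleen RNA of the sorted macrophages was extracted with Trizol, amplified with a MessageAmp kit and read on single-colour Illumina mouse arrays, per the labels' protocols. The authors deposited 1 linear intensity per probe and array, and the submitters' processing notes name GenomeStudio 2011.1. How the authors subtracted background, scaled or filtered was stated neither in the labels nor in the notes, and detection p-values and scan dates were not used here. Sample titles gave the groups. Nothing says whether both control arrays came from different mice, so the p-values measure only the spread between them, which may be technical.

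Genes were named from the platform annotation, in which 34885 probes have 1 symbol, 18 have several and 10378 have none. The background limit of an array was the 95% point of noise obtained by mirroring the values under the most frequent intensity. The limits were 106, 108, 113 and 115 on the Ifnar-/-, sLTβR-Fc and control arrays. Deposited intensities were quantile normalised over all probes and converted to log2 with no floor. limma 3.58.1 (R 4.3.3) fitted 3 group means and a mean-variance trend to the 15998 probes with 1 symbol above background on all 4 arrays, and called probes at a Benjamini-Hochberg adjusted p under 0.05. Only the control pair (r = 0.990 across probes, which are not independent replicates) gives residual degrees of freedom, 1 in all, beside a prior of 26. The fit was tested on simulated data, in which every array was given the spread of the control pair. That test cannot check whether the single arrays vary like the controls.

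Beside every member probe, the text names direct partners, up to 4 genes a list and comparison with the largest difference outside both controls, and the 2 genes nearest in pattern for members spanning at least 0.5 on the log2 scale. In a bound, the dim side was taken at no less than the lowest signal above background. Alternatives covered scaling, background correction, filters, the probe per gene, the trend and each control array. The members, lists and tests were chosen with earlier results of these data known.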

Additional observations from a re-analysis of the deposited data

How the results depend on the processing

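No paired analysis was possible because the groups compared share fewer than 2 replicate numbers. Of the single-probe values under other settings with a test, 108 kept direction and side of the threshold, 18 fell short of it, 1 newly passed it and 9 changed sign. Of those without 1 control array, which had no test, 28 kept their direction and 4 changed sign. As deposited, all probes counted 246 higher and 2628 lower in Ifnar-/- cells (2-fold 43 and 400) and 218 and 6899 after sLTβR-Fc (2-fold 38 and 877). Fc receptor probes then counted 0 called higher after sLTβR-Fc, 1 each 2-fold lower on either array and 0 2-fold higher in Ifnar-/- cells. After sLTβR-Fc the values as deposited changed sign to -0.48 and -0.56 for Fcgrt, -0.14 for ILMN_1228657, -0.14 for ILMN_3102376 (Fcgr2b) and -0.032 for Fcgr4. Under 75th percentile scaling it had Fcgrt at -0.16 and -0.24, 1 Fc receptor probe called higher, 2730 probes called lower, and 94 2-fold higher against 249 lower. Median centring over probes above background, added after seeing the data, gave Fcgrt -0.033 and -0.11, 4021 probes called higher and 161 2-fold lower there. With normexp correction 2 Fc receptor probes were 2-fold higher and 1 lower in Ifnar-/- cells, and 1 lower (151 of all probes) after sLTβR-Fc. A fit on 24045 probes above background on at least 1 array, with a floor, had a prior of 0.861 degrees of freedom, and limma called 0 probes in either direction on either array, 0 of them Fc receptor probes. At an unadjusted p under 0.05 it had 4573 probes in Ifnar-/- cells (4 of Fc receptors) and 5309 after sLTβR-Fc (3). Without the trend 222 and 305 probes were called higher and lower in Ifnar-/- cells (1 Fc receptor probe lower) and 189 and 108 after sLTβR-Fc (0 and 0). At an unadjusted p under 0.05, 4 Fc receptor probes passed after sLTβR-Fc in that fit. Without a filter 1 Fc receptor probe was called higher after sLTβR-Fc. With 1 probe per gene, fewer probes being tested, 1 was called higher and 1 lower in Ifnar-/- cells and 0 lower after sLTβR-Fc. Leaving out a control array left no test. Over both omissions the Fcgrt probes ran from -0.34 to 0.24 and from -0.27 to 0.24 in Ifnar-/- cells, and from -0.058 to 0.52 and from -0.14 to 0.37 after sLTβR-Fc. The 2-fold counts over both omissions ran from 148 to 207 higher and 215 to 355 lower in Ifnar-/- cells, and from 235 to 258 higher and 143 to 227 lower after sLTβR-Fc. Those of Fc receptor probes ran from 1 to 1 higher and 0 to 2 lower in Ifnar-/- cells, and from 1 to 1 higher and 0 to 1 lower after sLTβR-Fc. The cause of these changes was not tested. Signal near background limits Fcgr1, Fcer1g and ILMN_2447970.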

Other observations

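Further genes of cells that handle immune complexes differed as well. Other receptors with an ITIM had a median log2 difference of 0.45 in Ifnar-/- cells, beside 0.023 for all genes, with 4 of 8 past the test as higher and 0 as lower, where 7.48% and 7.87% of all genes were. As deposited 1 of the 8 passed as higher, Siglecg, at a median of 0.21. Siglecg, a sialic acid receptor of B cells, read 338 there, against 173 and 178 on the controls (log2 0.95 ± 0.17), and Cd72, another B cell receptor, was at log2 0.63 ± 0.19. Sirpa, the myeloid receptor for CD47, rose 1.67-fold in Ifnar-/- cells and 1.58-fold after sLTβR-Fc, the value after sLTβR-Fc being log2 0.027 as deposited. Lilrb4a, an inhibitory receptor of myeloid cells, was at log2 0.46 ± 0.12 in Ifnar-/- cells and 0.62 ± 0.12 after sLTβR-Fc, while a further probe gave -0.24 and 0.25.

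Activation of the phagocyte oxidase follows Fc receptor engagement. Of its 4 measured genes 1 passed as higher on either array, where 7.48% and 11.4% of all genes did. Cyba, its small membrane subunit, read 2434 in Ifnar-/- cells and 2208 after sLTβR-Fc, against 1060.1 and 1084 on the controls (log2 1.18 ± 0.19 and 1.04 ± 0.19). The value as deposited after sLTβR-Fc was 0.34, which did not pass (adjusted p = 0.208). Among regulators of the receptor genes, Spi1, which encodes PU.1, was at log2 0.25 ± 0.085 (adjusted p = 0.0487) in Ifnar-/- cells and 0.37 ± 0.085 (adjusted p = 0.00301) after sLTβR-Fc, and Irf8, a myeloid and B cell factor, was at 0.63 ± 0.17 in Ifnar-/- cells. As deposited Spi1 passed in neither comparison (adjusted p = 0.419 and 0.179), and Irf8 was at 0.32 in Ifnar-/- cells and did not pass (adjusted p = 0.278). Spi1 read near the background, at 143 in Ifnar-/- cells and 155 after sLTβR-Fc, against 123 and 117 on the controls. Irf9, a transcription factor of interferon responses, read 668 in Ifnar-/- cells and 539.9 after sLTβR-Fc, against 781 and 1047 on the controls. It passed as lower after sLTβR-Fc (log2 -0.74 ± 0.21), where a further probe gave 0.19.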
